A study of Mus musculus with 4 samples.

Results

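The 9 genes described here encode receptors, or receptor chains, through which growth factors and cytokines act on blood-forming cells: Csf3r, Csf2ra, Csf2rb, Csf2rb2, Csf1r, Il3ra, Il6ra, Il6st and Epor. They were chosen by name, not by their values, and all 9 were found among the 55401 genes of the deposited tables. Tibial bone marrow of WT C57/B6 male mice was profiled by RNA-seq of poly-A RNA. All mice were fed a high-fat diet (HFD) from 8 weeks of age to make them obese, and there was no lean group. The 2 libraries called Ob came from obese mice without training (treatment HFD feeding) and the 2 called Ob + Exe from obese mice put through 12 weeks of moderate-intensity treadmill running (HFD feeding and Exercise). The comparison asked what exercise does to the marrow under the same diet. The labels do not say whether a library is 1 mouse or a pool, so each p-value measures only the spread between these libraries. Values are FPKM (fragments per kilobase of transcript, corrected for library depth), summed over the transcripts of a gene and scaled between libraries, and each ± is an SD with n = 2.

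Colony-stimulating factors, interleukins and erythropoietin keep blood precursors alive and drive their division and maturation. Most of their receptors have no enzyme activity of their own: the ligand brings chains together, the JAK kinases bound to them become active, and STAT proteins carry the signal to the nucleus. Csf3r (the G-CSF receptor) serves neutrophils and Epor (the erythropoietin receptor) serves red cell precursors, each as a pair of identical chains. Csf2ra (GM-CSF) and Il3ra (IL-3) bind their ligand and signal through the shared beta chain Csf2rb, and the mouse has a close copy, Csf2rb2, which works with IL-3. Il6ra binds IL-6 and signals through Il6st (gp130), which other cytokines of that family also use. Csf1r, the receptor of macrophages for CSF-1, is a receptor tyrosine kinase and stands apart in structure.

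Chains of the cytokine receptor class carry the WSXWS box in the part of the chain outside the cell. In the coding sequences it was searched for in frame as TGG, a serine codon (TCN, AGC or AGT), any codon NNN, TGG and a serine codon. The box was found in 6 of the 9 receptors and in 70 of 21469 coding genes (0.326%). The stretches below show what the family shares at the level of bases, with the box in capitals and 21 bases on each side, from the GENCODE vM21 transcript of each gene with the most reads.
Csf3r: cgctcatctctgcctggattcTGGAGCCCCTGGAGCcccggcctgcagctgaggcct
Csf2rb: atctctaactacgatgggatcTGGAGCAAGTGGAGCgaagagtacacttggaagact
Csf2rb2: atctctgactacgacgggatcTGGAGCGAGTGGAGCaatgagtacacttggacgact
Il6ra: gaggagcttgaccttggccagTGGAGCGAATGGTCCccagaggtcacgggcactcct
Il6st: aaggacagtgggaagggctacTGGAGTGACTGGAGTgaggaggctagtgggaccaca
Epor: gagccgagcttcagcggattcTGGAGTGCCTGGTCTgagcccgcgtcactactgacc
Csf2ra, Il3ra and Csf1r had no match, which says only that these letters are not in their coding sequence.

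The 2 beta chain genes lie side by side on opposite strands of mouse chromosome 15 (build GRCm38), Csf2rb2 at chr15:78282507-78305721 on the minus strand and Csf2rb at chr15:78325752-78353847 on the plus strand. Their coding sequences, 2688 bases in Csf2rb and 2634 in Csf2rb2, were identical at 95.2% of the bases aligned without a gap. The longest run shared without a difference was 242 bases, at coding positions 2083 to 2324 of both. The 90-base window with the most substitutions, shown because reads there can tell the copies apart, held 16 differences (capitals).
Csf2rb: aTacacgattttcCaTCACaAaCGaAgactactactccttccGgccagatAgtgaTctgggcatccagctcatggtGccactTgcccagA
Csf2rb2: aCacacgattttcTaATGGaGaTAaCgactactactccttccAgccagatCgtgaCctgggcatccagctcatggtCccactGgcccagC
Of all 150-base stretches, the length of a read, 3.47% of the Csf2rb transcript and 3.59% of the Csf2rb2 transcript occurred unchanged in the other. How reads from these stretches were divided between the copies is not known, so both genes are also given as a sum.

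The other receptors are spread over the genome. On GRCm38, Csf3r is at chr4:126024550-126044440 (plus strand), Csf2ra at chr19:61223957-61228429 (minus), Il3ra at chr14:14346275-14356011 (plus), Il6ra at chr3:89864059-89913196 (minus), Il6st at chr13:112464070-112510086 (plus) and Epor at chr9:21958897-21963506 (minus). Exons of Il6ra shared 242 bases with the antisense gene Gm42809, those of Il3ra 46 bases with the antisense gene Gm48860, and those of Csf1r 873 bases with Hmgxb3 on the opposite strand. The antisense pair was listed at no more than 0.0622 FPKM in any library, and Hmgxb3 at 1.79 to 2.30. Whether the counting used strand is not stated, so reads of overlapping genes could not be told apart there.

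Depth was 53038186 and 50423542 read equivalents on transcripts in Ob against 44310505 and 46668748 in Ob + Exe (coverage times transcript length, divided by the read length of 150 bases). Both Ob libraries were thus the deeper. Genes above 0 numbered 23309 and 20663 in Ob against 17752 and 19291 in Ob + Exe. For genes with almost no reads in Ob, values of 0 in Ob + Exe alone cannot be told apart from lower depth. The scaling factors ran from 0.945 to 1.04. The label fields for cell line and cell type name the samples mesenchymal stem cells and fibroblast, but the marker genes showed whole marrow. The summed FPKM of 15 neutrophil granulocyte genes was 29142 to 51466 in Ob against 38108 to 68490 in Ob + Exe, and that of 15 erythroid genes 74947 to 75077 and 55926 to 84324. Against this, 13 stroma and fibroblast genes summed to 127 to 176 in Ob against 122 to 182 in Ob + Exe, most of it Cxcl12, a chemokine of marrow stroma. Libraries of unlike groups were about as alike as replicates, over the 12409 genes with a mean of at least 1 FPKM. The log2 values correlated at 0.949 between the Ob pair, at 0.900 between the Ob + Exe pair and at 0.909 to 0.948 across groups. In whole marrow, fewer cells of a type and less RNA per cell cannot be told apart.

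None of the 9 receptor genes met the thresholds of the study, which were p under 0.05 before adjustment together with a log2 fold change of more than 1 in size. Of the 18596 genes tested with limma, 3.74% did, 510 lower (2.74%) and 186 higher (1%) in Ob + Exe, and by this fit 0 genes of the whole table passed 0.05 after Benjamini-Hochberg adjustment. An unadjusted p under 0.05 was reached by 0 of the 9 receptors and by 5.05% of all genes. The log2 fold change (Ob + Exe minus Ob) was above 0 in 5 receptors and below 0 in 4, with a median of 0.0082, beside -0.019 over all genes tested. In 4 of the 9 (Csf3r, Csf2rb, Csf2rb2 and Il6ra) both Ob + Exe libraries lay above both Ob libraries, against 14.3% of all genes, and in Il3ra both lay below, against 18.3%. The groups thus did not overlap in 5 of 9 receptors, beside 32.6% of all genes. These differences are values between groups that did not overlap, not calls: the lowest adjusted p among the receptors was 0.959.

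**Figure D1:**
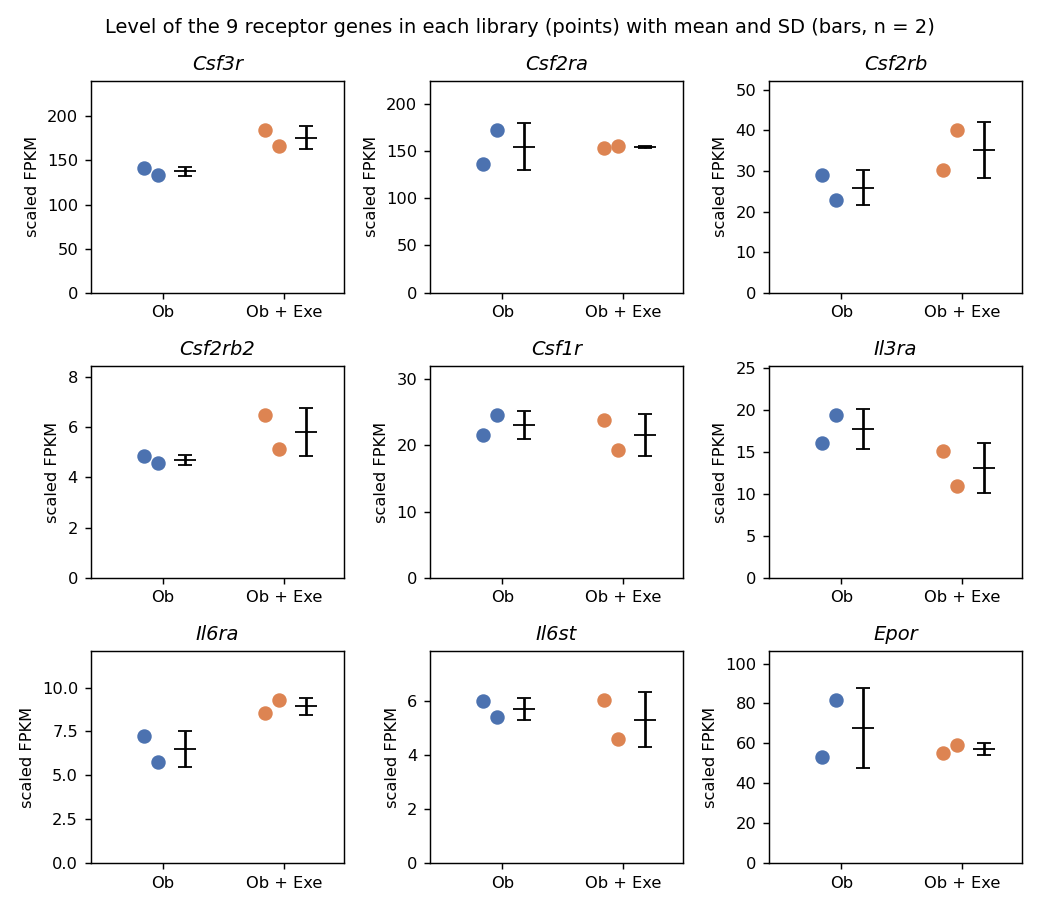
Scaled FPKM of each receptor gene in the 2 Ob (blue) and 2 Ob + Exe (orange) libraries, 1 panel per gene with its own axis from 0. Points are libraries, and the bars beside them give the mean and SD (n = 2). Csf3r, Csf2rb, Csf2rb2 and Il6ra were higher in both Ob + Exe libraries, Il3ra was lower in both, and the groups overlapped in the other 4.

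Csf3r and Csf2ra were by far the most abundant of the family in this marrow. Csf3r averaged 157 FPKM and Csf2ra 155 over the 4 libraries, at the 98.3rd percentile of all genes tested, and their ranges overlapped: Csf3r was the higher in 3 of 4 libraries. Next came Epor at 62.3, below the lowest library of either, and then Csf2rb at 30.5 with no overlap. Csf2rb and Csf1r (22.3) overlapped, Csf2rb being higher in 3 of 4 libraries. Il3ra (15.4) was below Csf1r in 4 of 4 libraries although their ranges over libraries overlapped. Il6ra followed at 7.72 without overlap, and then Il6st at 5.52 and Csf2rb2 at 5.25, of which Il6st was the higher in 2 of 4 libraries. FPKM is a level per length, so these genes can be ranked on it, but a gene's sum includes transcripts that do not code for protein. Transcripts with the main coding sequence of Csf3r, without scaling between libraries, summed to 139 and 136 FPKM in Ob against 179 and 150 in Ob + Exe. Those of Csf2ra summed to 107 and 133 against 125 and 121, below Csf3r in each library.

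The 9 receptors together summed to 416 and 471 FPKM in Ob, against 484 and 470 in Ob + Exe. Csf3r took 28.5% to 34.0% of that sum in Ob against 35.3% to 38.2% in Ob + Exe, so the shares did not overlap. The share of Csf2ra was 32.9% to 36.7% in Ob against 31.8% to 33.1% in Ob + Exe, which overlapped. That of Epor was 12.8% to 17.3% and 11.4% to 12.6%, lower without overlap. The shares of Csf1r (5.18% to 5.22% against 4.10% to 4.93%) and Il3ra (3.85% to 4.13% against 2.33% to 3.14%) were also lower without overlap. That of Il6ra (1.23% to 1.74% against 1.77% to 1.97%) was higher without overlap, so this was not particular to Csf3r. A share depends on the other 8 genes and is not a second measure of the receptor itself.

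Among the receptors of the granulocyte line, Csf3r had the highest level and the tightest replicates. It was 141 and 134 FPKM in Ob (138 ± 5.24) against 185 and 166 in Ob + Exe (175 ± 13.05), from 30315 to 35983 read equivalents per library. The higher library of Ob was below the lower one of Ob + Exe. In limma the log2 fold change was 0.35 (SE 0.199, 95% interval -0.14 to 0.84, adjusted p = 0.959), 1.27-fold between the means. The marker genes of neutrophils, the cells that carry this receptor most, gave these values beside it: 14 of the 15 on the list had a log2 fold change above 0 and 1 below, with a median of 0.32, none was called and none was at 0. Their summed level overlapped between the groups, as given above, and S100a8, a calcium-binding protein of neutrophils and the highest gene on that list, was 20818 and 11901 FPKM in Ob against 16107 and 35869 in Ob + Exe. The order of the 4 libraries was not the same in both, since Csf3r was highest in Ob + Exe replicate 1 and the marker sum in Ob + Exe replicate 2. Their part in the Csf3r difference was not tested.

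Csf2ra, the ligand-binding chain for GM-CSF, was at the same mean level in both groups. The values were 137 and 173 FPKM in Ob (155 ± 25.2) against 154 and 156 in Ob + Exe (155 ± 1.32). Both exercised libraries fell inside the range of the Ob pair. The log2 fold change was 0.01 with a 95% interval of -0.52 to 0.54 (limma, adjusted p = 0.999), an interval whose upper end is 1.45-fold.

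The shared beta chain Csf2rb was 29.0 and 22.8 FPKM in Ob (25.9 ± 4.36) against 30.2 and 40.1 in Ob + Exe (35.2 ± 7.02). The groups did not overlap, but the gap between Ob replicate 1 and Ob + Exe replicate 1 was smaller than the distance within either group. The log2 fold change was 0.43 (SE 0.250, 95% interval -0.18 to 1.05, limma adjusted p = 0.959).

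The copy Csf2rb2, which pairs with the IL-3 chain, was at 4.83 and 4.56 FPKM in Ob (4.69 ± 0.195) and at 6.48 and 5.12 in Ob + Exe (5.80 ± 0.963). It too was higher in both exercised libraries, by a log2 fold change of 0.29 (SE 0.287, 95% interval -0.42 to 0.999, limma adjusted p = 0.959). Added together, the 2 copies were 33.8 and 27.4 FPKM in Ob against 36.7 and 45.3 in Ob + Exe, with a log2 fold change of 0.42 (SE 0.230, limma adjusted p = 0.959). It was 0.26 without Ob replicate 2 and 0.26 without Ob + Exe replicate 2. The sum does not depend on how shared reads were divided, and it was not called either. Csf2rb2 stood at 0.167 and 0.200 of the Csf2rb level in Ob, against 0.215 and 0.128 in Ob + Exe, so the balance of the copies overlapped between groups (exact permutation p = 1, two-sided).

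Il3ra, the ligand-binding chain for IL-3, was the 1 receptor lower in both exercised libraries. It was 16.0 and 19.4 FPKM in Ob (17.7 ± 2.40) against 15.2 and 10.96 in Ob + Exe (13.1 ± 2.98), with a log2 fold change of -0.45 (SE 0.265, 95% interval -1.10 to 0.20, limma adjusted p = 0.959). The separation was present per length and absent in reads. As read equivalents scaled between libraries, Il3ra was 1332 and 2635 in Ob against 1876 and 1493 in Ob + Exe, so that Ob replicate 1 was the lowest of the 4. The 4 receptors that were higher without overlap in FPKM were also higher without overlap in scaled reads, and no receptor was lower without overlap there.

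**Figure D2:**
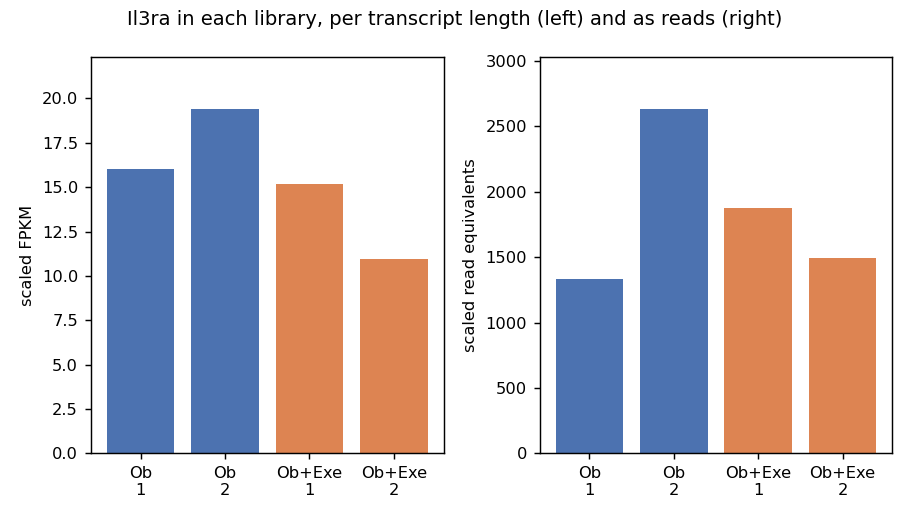
Il3ra in each library as scaled FPKM (left) and as scaled read equivalents (right), bars from 0, Ob in blue and Ob + Exe in orange. Ob replicate 1 was above both Ob + Exe libraries at 16.0 FPKM and below both at 1332 read equivalents.

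The transcripts to which the reads were assigned also set Ob replicate 1 apart. There, 64.8% of the Il3ra FPKM was given to Il3ra-205, a transcript of 1128 bases, and 15.5% to Il3ra-203, of 2315 bases. In the other 3 libraries Il3ra-205 was listed at 0, and Il3ra-203 held 92.7% in Ob replicate 2 and 80.7% and 93.4% in Ob + Exe. Il3ra-205 lacks 2 exons, chr14:14347914-14348068 (155 bases) and chr14:14348821-14348944 (124 bases), together 279 coding bases or 93 codons, and its coding sequence is 909 bases against 1188. The sequences at that splice, at coding positions 29 to 88 of each transcript, are shown because reads across it can tell the forms apart (capitals mark the bases after the junction).
Il3ra-205: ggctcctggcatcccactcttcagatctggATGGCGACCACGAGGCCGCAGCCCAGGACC
Il3ra-203: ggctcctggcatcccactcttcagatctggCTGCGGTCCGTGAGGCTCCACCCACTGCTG
Transcripts with the full coding sequence summed to 4.60 and 18.8 FPKM in Ob against 12.3 and 9.67 in Ob + Exe, which overlapped. FPKM divides by transcript length, so the same reads give a higher value on the shorter form. Whether Ob replicate 1 held more of that form in the tissue was not tested.

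Csf1r, the CSF-1 receptor of monocytes, macrophages and osteoclast precursors, was 21.6 and 24.6 FPKM in Ob (23.1 ± 2.13) against 23.8 and 19.3 in Ob + Exe (21.6 ± 3.19). The groups overlapped, and the log2 fold change was -0.10 (SE 0.226, 95% interval -0.66 to 0.46, limma adjusted p = 0.977). Beside it, 15 monocyte and macrophage genes summed to 585 to 631 FPKM in Ob against 599 to 658 in Ob + Exe. Their highest gene, Ly6c2, a surface protein of classical monocytes, was 332 and 268 FPKM in Ob against 249 and 333 in Ob + Exe. On that list 8 genes were lower and 7 higher, none at 0. Ace was called lower, at 4.11 and 7.20 against 2.10 and 2.99 FPKM, beside 2.74% of all genes called lower.

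The ratio of Csf3r to Csf1r sets the granulocyte receptor against the macrophage receptor within each library, which removes any factor common to both. Csf3r was 6.55 and 5.45 times Csf1r in Ob against 7.75 and 8.61 times in Ob + Exe. The ratio was higher in 2 of 2 exercised libraries, by 0.45 on the log2 scale with a pooled SD of 0.153. An exact two-sided permutation test gave p = 0.33, the smallest that 2 libraries against 2 allow, and 0.5 after adjustment over the 3 ratios tested.

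The interleukin-6 receptor is a pair of unlike chains. Il6ra, which binds IL-6, was 7.24 and 5.79 FPKM in Ob (6.52 ± 1.03) against 8.58 and 9.29 in Ob + Exe (8.93 ± 0.502). Both exercised libraries were above both others, with a log2 fold change of 0.46 (SE 0.262, 95% interval -0.19 to 1.11, limma adjusted p = 0.959), the largest in size of the 9. Il6st, the signalling chain gp130, was 5.999 and 5.42 FPKM in Ob (5.71 ± 0.409) against 6.04 and 4.60 in Ob + Exe (5.32 ± 1.02). Its groups overlapped and its log2 fold change was -0.11 (SE 0.291, 95% interval -0.83 to 0.61, limma adjusted p = 0.983). Il6ra was 1.21 and 1.07 times Il6st in Ob against 1.42 and 2.02 times in Ob + Exe. That ratio did not overlap between the groups either, with a difference of 0.58 on the log2 scale, a pooled SD of 0.269 and an exact permutation p of 0.33 (two-sided, adjusted 0.5). Without Ob + Exe replicate 2 the difference was 0.32.

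Epor had the widest replicates of the family. It was 53.3 and 81.6 FPKM in Ob (67.5 ± 20.0) against 54.9 and 59.3 in Ob + Exe (57.1 ± 3.11), so both exercised libraries lay within the Ob pair. The log2 fold change was -0.21 (SE 0.262, 95% interval -0.86 to 0.44, limma adjusted p = 0.970). Of 15 erythroid genes, 11 had a log2 fold change below 0 and 4 above, none was called and none was at 0. Hbb-bs, an adult beta globin and the highest of them, was 32825 and 27432 FPKM in Ob against 17443 and 43528 in Ob + Exe. The erythroid sum given above was alike in both Ob libraries, while its members went both ways. Hbb-bs was lower in Ob replicate 2 than in replicate 1. Hba-a2, an alpha globin named here after its values were seen, was higher there, at 9530 and 14529 FPKM in Ob. Of the other globins on the list, Hba-a1 was nearly level in Ob at 23450 and 23931 FPKM. Hbb-bt was lower in replicate 2, at 5426 and 4946. Epor was higher in Ob replicate 2. The part of red cell precursors in the Epor values was not tested.

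**Figure D3:**
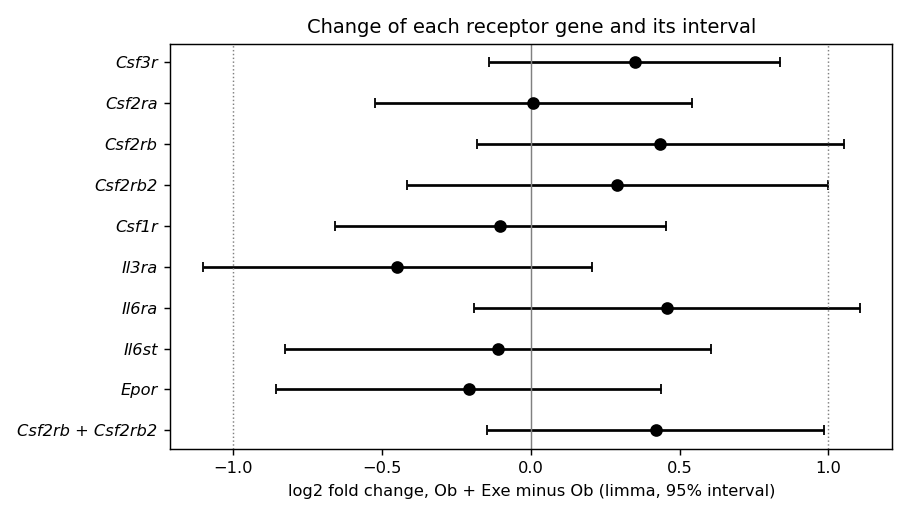
log2 fold change (Ob + Exe minus Ob, limma) of each receptor and of Csf2rb plus Csf2rb2, with 95% intervals; dotted lines mark the study's threshold of 1 in size. Every interval included 0, and all but those of Csf2rb, Il3ra and Il6ra lay within the threshold.

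Isoform assignments were examined for all 51 annotated transcripts of the 9 genes. Of these, 14 were listed at 0 in all 4 libraries and 27 passed the filter for low values. In Csf1r, Csf2rb2, Il6ra, Il6st and Epor 1 transcript each (Csf1r-202, Csf2rb2-201, Il6ra-202, Il6st-203 and Epor-201) held over 97% of the FPKM on average. Csf2ra-201 held 75.6% and 74.0% in Ob against 78.6% and 82.2% in Ob + Exe. Csf2ra-207, with a coding sequence of the same 1164 bases, held 2.47% in Ob + Exe replicate 1 and 0.0516% to 0.0747% in the other 3 libraries, and the other 6 transcripts do not code for protein.

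Csf2rb showed a switch of assignment like that of Il3ra, also in Ob replicate 1. Csf2rb-201 held 96.6% there and was listed at 0 in the other 3 libraries, where Csf2rb-206 held 98.6%, 97.1% and 99.8%. Both transcripts have the same coding sequence of 2688 bases and nearly the same length (4764 and 4900 bases), so the level of the gene hardly depends on which was chosen. Csf3r was split between Csf3r-202, with 88.1% and 92.3% in Ob against 73.3% and 87.3% in Ob + Exe, and Csf3r-201, with 7.63% and 5.02% against 22.9% and 8.14%. These 2 also share 1 coding sequence, and their sum was 139 and 136 FPKM in Ob against 179 and 150 in Ob + Exe. FPKM values of transcripts are given here and elsewhere without scaling between libraries.

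**Figure D4:**
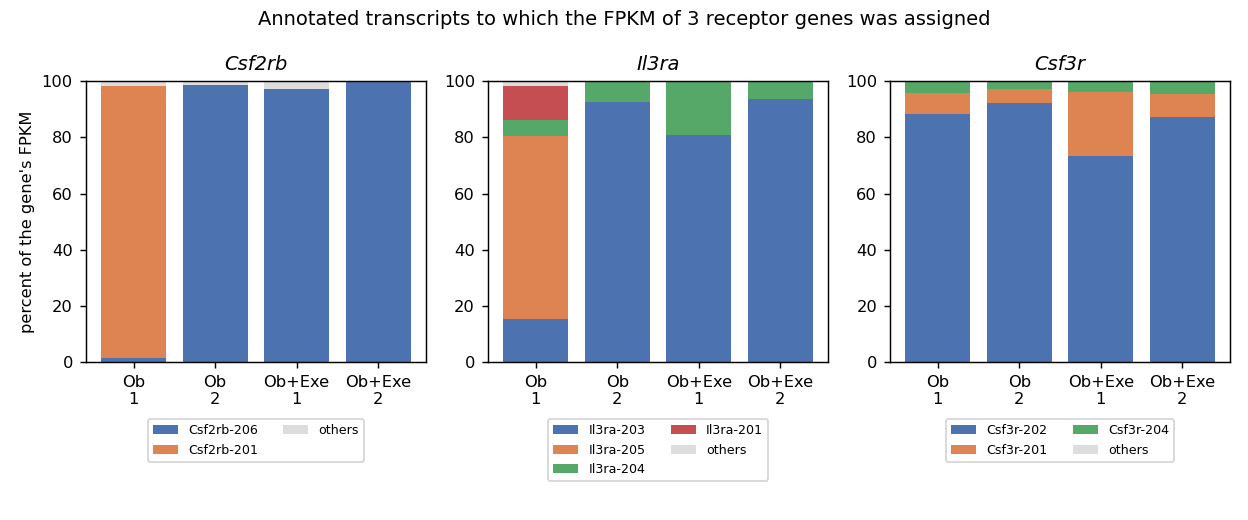
Percent of the FPKM of Csf2rb, Il3ra and Csf3r assigned to each annotated transcript in each library (stacked to 100). Ob replicate 1 stood apart in Csf2rb, with 96.6% on Csf2rb-201, and in Il3ra, with 64.8% on Il3ra-205.

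Of the 27 transcripts tested, 2 were called lower by the same thresholds and none higher, beside 4.7% lower, 1.8% higher and 6.5% in all of the 46692 transcripts tested in the whole table. Csf2ra-204, a processed transcript with no coding sequence, was 4.40 and 1.92 FPKM in Ob against 0.227 and 0.741 in Ob + Exe (log2 fold change -2.48, SE 0.857, limma adjusted p = 0.733), from 4 to 96 read equivalents. Csf3r-203, another processed transcript, was 0.391 and 0.495 FPKM in Ob but listed at 0 in both Ob + Exe libraries (limma adjusted p = 0.672), from 24 and 29 read equivalents in Ob. Neither codes for a receptor chain, and both rest on few reads.

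The genes around the receptors were read from a list of 77 in 5 groups: ligands, other receptors, JAK and STAT genes, inhibitors and target genes. Of the 67 that passed the filter, 2 were called, both higher and both ligands, beside 3.74% of all genes. The log2 fold change was above 0 in 35 and below 0 in 32, with a median of 0.028. Of the 67, 11 were higher without overlap of the groups and 9 lower, beside 14.3% and 18.3% of all genes.

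**Figure D5:**
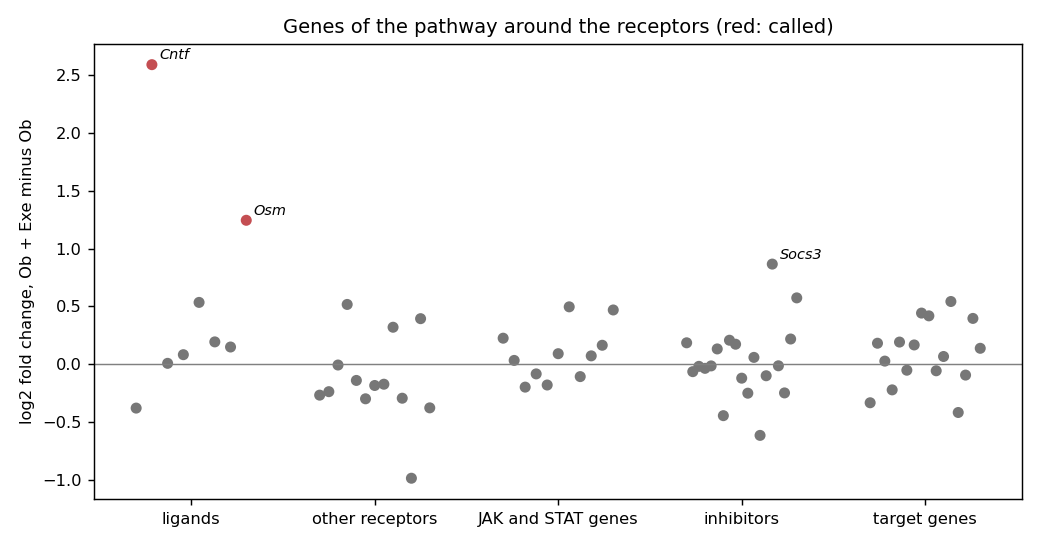
log2 fold change (Ob + Exe minus Ob, limma) of the 67 tested pathway genes by group, 1 point per gene, red where called. Osm (1.25) and Cntf (2.59) were the called genes, and the highest of the inhibitors was Socs3 (0.87), which was not called.

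Oncostatin M, a cytokine of myeloid cells whose receptors include the gp130 chain Il6st, rose by these thresholds. Osm was 5.35 and 4.82 FPKM in Ob (5.08 ± 0.376) against 12.6 and 11.7 in Ob + Exe (12.2 ± 0.637), 2.40-fold between the means. The replicates were close and the groups far apart (log2 fold change 1.25, SE 0.247, limma adjusted p = 0.941). Its own receptor chain Osmr was low, at 0.403 and 0.613 against 0.930 and 0.501 FPKM.

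Cntf, which signals through gp130 as well, was the other call, at 0.413 and 0.394 FPKM in Ob against 2.56 and 3.35 in Ob + Exe (log2 fold change 2.59, SE 0.447, limma adjusted p = 0.941). It overlaps a transcript listed under the neighbouring Zfp91. That transcript held 192 and 268 read equivalents in Ob against 0 in both Ob + Exe libraries, while Cntf held 30 and 28 and then 162 and 197. Added together and scaled between libraries, they were 201 and 273 in Ob against 169 and 222 in Ob + Exe, which overlapped. The call on Cntf therefore holds for the reads as assigned and not for the sum over the locus, a check made after its values were seen.

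Of the ligands of the 9 receptors themselves, few could be measured in marrow. Csf2, Csf3, Epo and Il3 were below the filter, as were Ctf1, Il11, Il5, Lif and Thpo. Csf1 was 4.39 and 4.64 FPKM in Ob against 3.62 and 5.69 in Ob + Exe, and Il6 0.621 and 0.460 against 0.164 and 1.90, both overlapping. Il34, the other ligand of Csf1r, was 0.658 and 1.09 against 1.103 and 1.48, higher without overlap and not called (log2 fold change 0.54, SE 0.498, limma adjusted p = 0.959). Flt3l, a ligand of early progenitors and dendritic cells and the most abundant of the group, was 12.99 and 13.5 against 20.1 and 9.78. Csf1, Il34 and Il6 were chosen as ligands of Csf1r and Il6ra after their values were seen.

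Among 13 other receptors tested, 10 were lower and 3 higher and none was called. Il2rg, the common gamma chain of lymphoid cytokine receptors, was 20.4 and 11.8 FPKM in Ob against 13.3 and 14.96 in Ob + Exe, and Il11ra1, the IL-11 receptor chain, 7.23 and 12.0 against 26.8 and 6.64. Both overlapped, the second with its exercised libraries on either side of the others.

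Of 11 JAK and STAT genes, which carry the signal of the chains, 7 were higher and 4 lower, none called. Jak1 was 41.8 and 34.3 FPKM in Ob against 38.8 and 50.5 in Ob + Exe, which overlapped. Stat6, which serves IL-4, was 28.5 and 29.6 against 35.4 and 29.9, higher without overlap. Of 19 inhibitors 8 were higher and 11 lower, none called. Ptpn6 (SHP-1), a phosphatase that dampens these receptors, was 73.7 and 72.5 FPKM in Ob against 61.9 and 61.1 in Ob + Exe. It was lower without overlap (log2 fold change -0.25, SE 0.188, limma adjusted p = 0.959). Ptpn1 was 21.5 and 21.1 against 22.4 and 27.0, higher without overlap.

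Socs3, the feedback inhibitor that binds gp130 and the G-CSF receptor, was 3.28 and 3.30 FPKM in Ob against 6.71 and 5.50 in Ob + Exe. Its log2 fold change of 0.87 (SE 0.292, limma adjusted p = 0.959) was under the threshold of 1, and it is named here after its values were seen. Among 16 target genes 10 were higher and 6 lower, none called. Ccnd3, a cyclin of dividing blood cells, was 243 and 260 FPKM in Ob against 291 and 284 in Ob + Exe. Mcl1, a survival factor of granulocytes, was 108 and 106 against 140 and 175 (log2 fold change 0.54, SE 0.213, limma adjusted p = 0.959). Socs3, Ccnd3 and Mcl1 were each higher without overlap.

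For the 3 receptors that varied most over the 4 libraries, the nearest patterns were sought among the 12409 genes with a mean of at least 1 FPKM, by the distance between log2 values centred on their mean. Il3ra was nearest to Gm26394 (distance 0.019), Slc41a1 (0.043) and Plekho1 (0.051). Csf2rb was nearest to Grk5 (0.042), Zfp516 (0.044) and Cds2 (0.045), and Il6ra to Ldha (0.025), Mgat2 (0.029) and Camp (0.058). With only 4 points such likeness is common: 424, 738 and 657 genes lay within a distance of 0.3 of Il3ra, Csf2rb and Il6ra.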

How the data were processed

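RNA-seq libraries of tibial marrow (2 Ob, 2 Ob + Exe) were grouped from the labels. The authors made poly-A libraries with the NEBNext Ultra kit, aligned reads to GRCm38 with HISAT2 and ran StringTie (versions not given in the sources used here; FastQC, fastp, SAMtools and DESeq2 are also named in the submitters' processing notes). The deposited tables give, per transcript, FPKM as StringTie computed it and coverage (mean read depth per base). Coverage times length over 150 bases gave read equivalents, which were not whole numbers, so no count test was run here.

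FPKM was summed per gene, scaled by median-of-ratios factors and tested as log2(FPKM + 0.1) with limma 3.58.1 (R 4.3.3, intensity trend, two-sided) over the 18596 genes with a mean of at least 0.1 FPKM. Fold changes are on that scale and understate the change of low genes. In limma the variance of each gene is drawn toward that of genes of like level (3.79 prior against 2 residual degrees of freedom). The SE and p of a gene thus do not rest on its own spread alone. Calls needed p under 0.05 and a log2 fold change over 1 in size, with Benjamini-Hochberg adjusted p beside. The 3 ratios were tested by exact permutation. The script was tested on simulated data.

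The members and gene lists were chosen with earlier results of these data known. Named were the 9 receptors, called pathway genes, the 2 most abundant genes of each pathway group, the highest gene of each marker list, the 3 nearest patterns of the 3 most variable receptors, and transcripts called or holding 10% of their gene. Same-numbered libraries were checked for pairing: their differences correlated at -0.106 over all genes tested and at -0.235 over the 12409 with a mean of at least 1 FPKM, so the numbers do not pair them, and the crossed pairing was tried too. Transcript sequences came from GENCODE vM21, in which 54349 of the 55401 gene IDs and the 51 receptor transcripts matched. Alternatives covered the filter, pseudocount, scaling, intensity trend, read-based test, block, transcript choice and each library left out.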

Additional observations from a re-analysis of the deposited data

How the results depend on the processing

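No receptor was called under any of 16 alternative settings (lowest adjusted p 0.421), and 136 of the 144 alternative log2 fold changes kept their direction. Reversals were Csf2ra at -0.080 without scaling and -0.025 with quantile normalization, and Il3ra at 0.68 with only its most abundant transcript, the setting that also moved Csf2rb to 3.22, Csf3r to 0.13 and the log2 ratio of Csf2rb2 to Csf2rb to -3.09. For Il3ra and Csf2rb that transcript held few reads in Ob replicate 1. With 1 library left out, the log2 fold changes ran from -0.17 to 0.16 in Csf2ra, -0.26 to 0.036 in Csf1r, -0.31 to 0.070 in Il6st, -0.52 to 0.085 in Epor, and the log2 ratio of Csf2rb2 to Csf2rb from -0.51 to 0.24, each reversing. Csf3r (0.26 to 0.41), Csf2rb (0.22 to 0.63), Csf2rb2 (0.11 to 0.45), Il3ra (-0.69 to -0.23) and Il6ra (0.29 to 0.61) kept their sign, as did Csf2rb plus Csf2rb2 (0.26 to 0.56) and the log2 ratios of Csf3r to Csf1r (0.32 to 0.58) and Il6ra to Il6st (0.32 to 0.83). In all of these the groups did not overlap, so apart from small shifts by rescaling the sign was bound to hold. The kept sign is therefore no further support.

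Member transcripts called were 2 in the main test, 1 with a pseudocount of 1, 0 with a minimum mean of 1 FPKM, and 1 to 7 with a library left out (6 without Ob replicate 2 and 7 without Ob + Exe replicate 2). Pathway genes called were 2, but 4 with only the most abundant transcript, and 2 to 5 with a library left out (5 without Ob + Exe replicate 1). Osm and Cntf were called under each of the 16 settings. All of these take the reads as assigned to transcripts, so they do not bear on the sum over the Cntf locus, which overlapped between the groups. Flt3l reversed without scaling (-0.0039) and, by library left out, ran from -0.44 to 0.59, Il2rg from -0.54 to 0.25, and Il11ra1 from -0.49 to 1.50, the last also reversing to -3.38 with its most abundant transcript. The cause was not tested.

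Of all genes, 696 were called, against 222 with a pseudocount of 1, 267 with a minimum of 1 FPKM, 344 among protein-coding genes only, 459 with voom on read equivalents, 1060 without the intensity trend, 1229 without Ob + Exe replicate 1 and 1851 without Ob + Exe replicate 2. Quantile normalization changed the split from 510 lower and 186 higher to 416 and 246. With the replicate number as a block, 0 receptors were called, and 742 genes were, 18 of all genes having an adjusted p under 0.05. The receptors' log2 fold changes stayed the same by design (Csf3r 0.35), since each block holds a library of each group. That is also so for the crossed pairing. Leaving out the intensity trend changes no log2 fold change either. None of these settings tests the direction of the receptors, although all are in the count of kept directions above. The crossed pairing, chosen after seeing the data, called 803 genes and 0 receptors, with 11 genes at an adjusted p under 0.05. Protein-coding genes, summed transcripts and the pathway alternatives were also added after seeing the data. With 2 libraries a group, the SE of the receptors was 0.199 to 0.291 on the log2 scale, which limits the size of change that could be told from 0.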

Other observations

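Marker lists of other marrow cells give the setting of the receptor values. Calls on them stand beside 2.74% of all genes called lower and 1% called higher. By this fit 0 genes had an adjusted p under 0.05. Of 11 megakaryocyte and platelet genes all 11 had a log2 fold change below 0, with a median of -0.95, and 4 were called lower (Treml1, Gp5, Gp1ba and Gp1bb, which encode platelet receptors). Their summed FPKM was 375 to 505 in Ob and 153 to 401 in Ob + Exe, with the highest gene, the platelet chemokine Ppbp, at 213 and 113 against 134 and 48.3. Of 11 B cell genes 10 were lower and 2 were called (Cd79a and Igll1, chains of the B cell receptor complexes). That list summed to 699 to 1641 FPKM in Ob and 883 to 931 in Ob + Exe, and its highest gene, the immunoglobulin heavy chain Ighm, was 1390.3 and 437 against 690 and 770, so Ob replicate 1 stood above the other 3 libraries. Of 9 stem and progenitor genes tested 7 were lower and Slamf1 was called lower, while Ly6a, the highest of them, was 22.3 and 17.7 FPKM in Ob against 28.02 and 22.8 in Ob + Exe. Of 10 eosinophil, basophil and mast cell genes 9 were higher and Prg2, an eosinophil granule protein, was called higher. Prss34, a basophil and mast cell protease and the highest of that list, was 99.999 and 68.0 against 73.0 and 124. Of 10 T and natural killer cell genes 4 were lower and 6 higher, none called, and Nkg7, a cytotoxic granule protein and the highest of them, was 51.0 and 27.4 against 51.7 and 36.1. Of 13 stroma and fibroblast genes 6 were lower and 7 higher, with Col1a1 called lower. The 6 skeletal muscle genes tested all had a log2 fold change above 0, Acta1 being called. The groups did not overlap in 3 of them, beside 14.3% of all genes higher without overlap. Pvalb, Ckm and Tnnt3 overlapped, with Ckm at 0.600 and 0 FPKM in Ob against 0.472 and 0.364 in Ob + Exe. Mylpf, a fast muscle myosin light chain and the highest of the list, was 4.61 and 4.09 against 6.30 and 5.11. The list summed to 7.40 to 11.5 FPKM in Ob and 15.4 to 15.7 in Ob + Exe. The part of these lists in the receptor values was not tested.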
